A study of Mus musculus with 6 samples.

Results

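Galectin genes were examined in the subventricular zone (SVZ), the neurogenic tissue along the wall of the lateral ventricle, after experimental stroke. The genes were Lgals1, Lgals3, Lgals4, Lgals8 and Lgals9, which encode galectins, and Lgals3bp, which encodes a secreted glycoprotein that binds them. They were found by exact match of the array annotation to these symbols, which gave 6 genes of 18193 and 8 probe sets of 45101. Lgals1 and Lgals8 had 2 probe sets each. For these the probe set was chosen by its measured values, as the one with the higher mean over MCAO and sham arrays together, and the other was kept as a check. The genes were listed with earlier results of these data known, in which Lgals1 and Lgals3 were among the largest rises.

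Tissue came from adult male C57BL/6 mice. In the MCAO group the middle cerebral artery, which feeds the striatum and lateral cortex, had been occluded 48 h before death, and the SVZ of the injured side was taken (3 arrays). In the sham group the mice had undergone sham surgery, also 48 h before death (3 arrays). Total RNA of the dissected tissue was labelled with biotin and hybridised to 1-colour arrays, and the labels do not say whether the arrays stand for separate mice. The p-values therefore set a difference only against the variation between these samples, and that variation may be technical. No cells were sorted, so in these samples more cells of a type and more RNA per cell cannot be told apart.

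Galectins are lectins that bind galactose-containing sugars on glycoproteins and glycolipids. They are made in the cytosol and leave cells without passing through the usual secretory route. Outside cells they cross-link surface glycoproteins, and inside cells they gather on damaged lysosomes and endosomes. In the mouse SVZ, galectin-1 is known as a product of slowly dividing astrocyte-like stem cells that promotes progenitor proliferation, and galectin-3 is known for roles in neuroblast migration and in the motile cilia of the ventricle wall. Galectin-3 is also a product of activated microglia and macrophages.

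The arrays read markers of SVZ cells and also of striatal neurons. In sham tissue 9 of 10 neuroblast markers, 8 of 10 ependymal markers and 6 of 6 striatal neuron markers lay above the median gene, against 2 of 7 choroid plexus markers. The dissected tissue thus held more than SVZ cells, and a change in it cannot be placed in SVZ cells alone. On the first principal component (40.8% of the variance) MCAO 1 and sham 1 lay away from the rest. On the second (33.8%) MCAO arrays scored −19.3 to −8.0 and sham arrays 7.4 to 16.4, without overlap. Over all genes, 206 of 18193 passed the threshold used throughout, an adjusted p under 0.05 by limma with p-values adjusted over all genes after Benjamini and Hochberg. Of these, 203 were higher in MCAO and 3 lower. Values are on a log2 scale, on which a step of 1 is a 2-fold change, after quantile normalisation of the arrays, and differences are MCAO minus sham.

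Of the 6 genes, 4 rose in MCAO (Lgals1, Lgals3, Lgals9 and Lgals3bp) and 2 did not pass (Lgals8 and Lgals4). Over all genes 1.13% passed, with 1.12% higher and 0.0165% lower in MCAO. With the sample number as a block the same 4 genes rose and 0 fell, while 4.83% of all genes rose and 1.30% fell. All 3 MCAO values lay above all 3 sham values for the same 4 genes and below them for 0, against 8.44% and 5.37% of all genes. The MCAO value was higher within all 3 sample numbers for 5 of the 6, Lgals8 being the fifth, against 20.0% of all genes. At an unadjusted p under 0.05 the same 4 genes were higher in MCAO and 0 lower, against 6.33% and 2.46% of all genes. Nothing is read from these shares about galectins as a family, since the 6 were listed with results known. The median difference of the 6 was 1.03 log2, against −0.0064 over all genes.

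**Figure D1:**
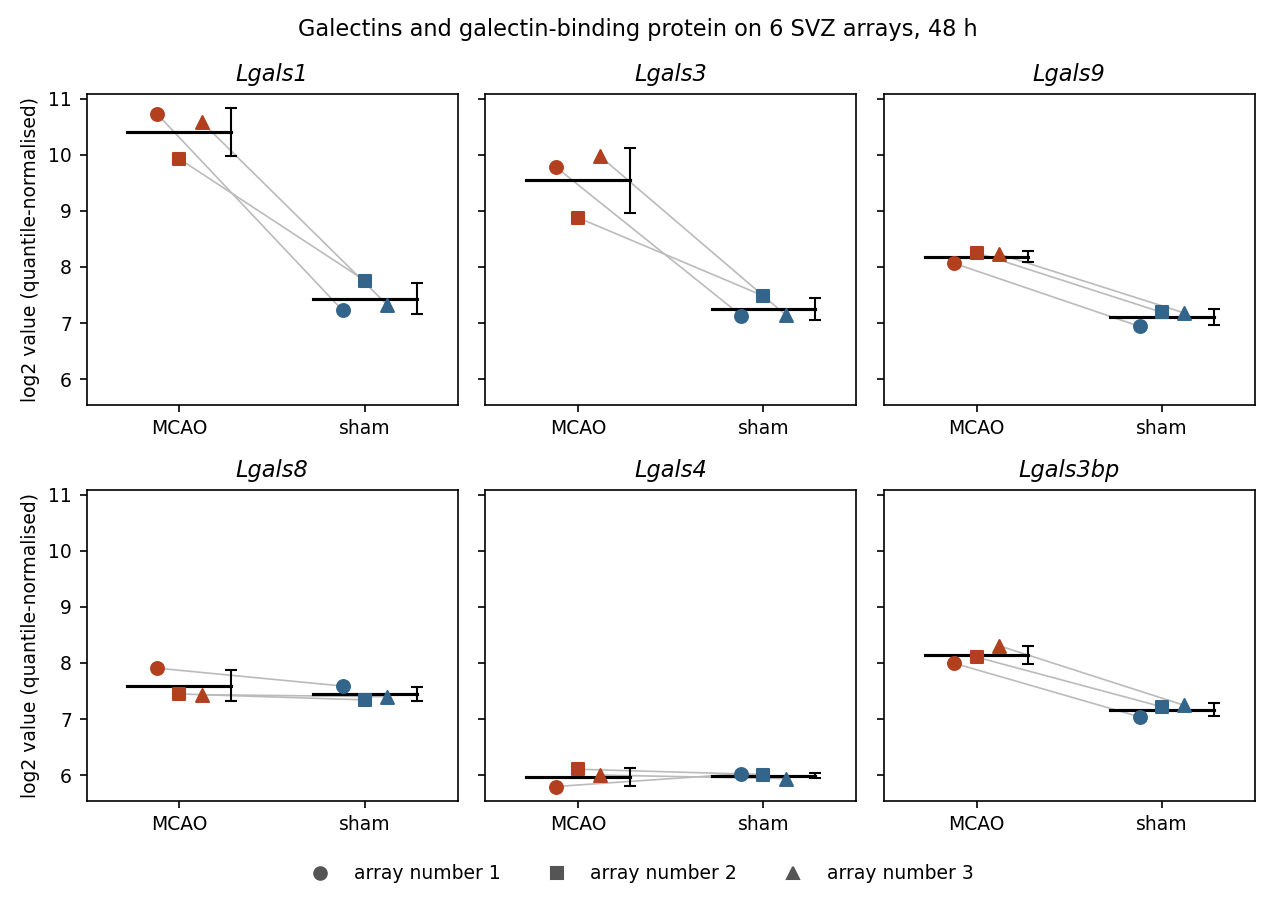
Quantile-normalised log2 values (vertical axis) of the 6 genes on each array, with MCAO on the left and sham on the right of each panel. Symbols give the array number, grey lines join arrays of the same number, and black bars are the mean with the SD of 3 arrays. The MCAO and sham points are apart for Lgals1, Lgals3, Lgals9 and Lgals3bp and overlap for Lgals8 and Lgals4.

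Lgals1 encodes a small galectin with a single sugar-binding domain that works as a dimer. Its log2 values were 10.73, 9.93 and 10.59 on MCAO arrays 1 to 3, against 7.22, 7.76 and 7.33 on sham arrays 1 to 3. All MCAO values were far above all sham values, although MCAO 2 was the lowest of its group and sham 2 the highest of its own. The Lgals1 mean was 10.42 ± 0.43 in MCAO, against 7.44 ± 0.28 in sham (SD, n = 3 each), and the groups differed by 2.98 ± 0.22 log2 (SE; 95% interval 2.46 to 3.50; adjusted p = 0.00304 by limma). This is 7.89-fold, the rise ranked 2 among all genes. The gene's second probe set read 2.94 ± 0.24 higher in MCAO (adjusted p = 0.00404 by limma over all probe sets with 1 symbol). Its values were 10.67, 9.66 and 10.21 on MCAO 1 to 3 and 7.19, 7.51 and 7.03 on sham 1 to 3, so the same arrays were lowest in MCAO and highest in sham.

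Lgals3 encodes the galectin that carries a long flexible tail beside its sugar-binding domain and forms larger assemblies. Its log2 values were 9.79, 8.88 and 9.97 on MCAO 1 to 3, against 7.13, 7.48 and 7.14 on sham 1 to 3. The groups did not overlap, and as for Lgals1 the array numbered 2 was lowest in MCAO and highest in sham. The mean of Lgals3 was 9.55 ± 0.59 in MCAO, against 7.25 ± 0.20 in sham (SD, n = 3 each), and the difference came to 2.29 ± 0.27 log2 (SE; 95% interval 1.68 to 2.91; adjusted p = 0.00968 by limma), or 4.90-fold. Without sham 3 the difference was 2.24 and the adjusted p by limma 0.0743. A single probe set with 1 symbol read this gene.

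Lgals9 encodes a galectin with a pair of sugar-binding domains joined by a linker, and it is known as an interferon-induced gene and as a ligand of the immune receptor TIM-3. Its log2 values were 8.06, 8.26 and 8.23 on MCAO 1 to 3, against 6.94, 7.19 and 7.18 on sham 1 to 3. The groups did not overlap, and in both groups the array numbered 1 was the lowest. Lgals9 had a mean of 8.18 ± 0.10 in MCAO, against 7.10 ± 0.14 in sham (SD, n = 3 each), and rose by 1.08 ± 0.098 log2 (SE; 95% interval 0.85 to 1.31; adjusted p = 0.00405 by limma), or 2.12-fold.

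Lgals3bp is no galectin itself. Its protein is heavily glycosylated, carries a scavenger receptor domain, binds galectin-3 and galectin-1, and is known to be induced by interferons. Its log2 values were 7.99, 8.11 and 8.31 on MCAO 1 to 3, against 7.04, 7.22 and 7.24 on sham 1 to 3. Again no sham value reached the lowest MCAO value, and the array numbered 1 was the lowest of both groups. Lgals3bp had a mean of 8.14 ± 0.16 in MCAO, against 7.17 ± 0.11 in sham (SD, n = 3 each), and rose by 0.97 ± 0.10 log2 (SE; 95% interval 0.73 to 1.21; adjusted p = 0.00719 by limma), or 1.96-fold. Among all rises Lgals9 ranked 76 and Lgals3bp 100.

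The promoters of the genes that rose are shown because Lgals9 and Lgals3bp changed by nearly the same amount on every number, while Lgals3 varied more. RefSeq's promoter table (GRCm38.p6) held 5 of the 6 genes, and Lgals1 was not among them. Each sequence runs 5′ to 3′ in the gene's direction from 250 bases before the annotated start to 30 after it, with matches to the searched motifs in capitals.
Lgals9, chr11:78984895-78985174, minus strand: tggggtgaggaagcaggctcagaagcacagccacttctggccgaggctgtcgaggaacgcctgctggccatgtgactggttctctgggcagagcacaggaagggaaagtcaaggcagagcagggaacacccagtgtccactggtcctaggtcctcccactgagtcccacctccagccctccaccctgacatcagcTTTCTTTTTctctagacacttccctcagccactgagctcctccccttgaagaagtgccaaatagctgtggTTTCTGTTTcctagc
Lgals3bp, chr11:118401930-118402209, minus strand: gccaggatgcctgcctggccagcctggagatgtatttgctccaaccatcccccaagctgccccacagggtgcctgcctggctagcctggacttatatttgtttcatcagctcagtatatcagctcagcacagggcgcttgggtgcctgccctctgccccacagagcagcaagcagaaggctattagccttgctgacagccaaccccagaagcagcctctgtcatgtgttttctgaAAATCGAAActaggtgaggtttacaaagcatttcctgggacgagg
Lgals3, chr14:47373610-47373889, plus strand: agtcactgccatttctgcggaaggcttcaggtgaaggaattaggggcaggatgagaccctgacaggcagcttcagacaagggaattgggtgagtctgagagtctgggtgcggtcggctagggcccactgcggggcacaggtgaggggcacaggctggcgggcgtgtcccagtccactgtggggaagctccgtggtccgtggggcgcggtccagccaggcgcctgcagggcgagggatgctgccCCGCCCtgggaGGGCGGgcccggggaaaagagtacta
The motifs, searched on both strands, were AAANNGAAA, a core of interferon response elements, the STAT site TTCNNNGAA, the AP-1 site TGANTCA and the GC box GGGCGG. Lgals9 held AAANNGAAA at 2 places, from base −55 to −47 and from base 16 to 24 counted from the start, both on the opposite strand. Lgals3bp held it from base −15 to −7, and 10.1% of 32851 promoters of the same length held it at least once. Lgals3 held the GC box at 2 places, from base −7 to −2 on the opposite strand and from base 5 to 10 on the strand shown. Of all promoters 34.7% held it at least once. The windows of Lgals4 and Lgals8 held none of the 4 motifs. No window of these 5 genes held the STAT or AP-1 letters, which 7.83% and 7.46% of all promoters did. These matches describe letters in a window and are neither binding sites nor causes of a change. The motifs were chosen after the sequences were seen, so the shares over all promoters are no test of these matches.

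Lgals8 and Lgals4, which like Lgals9 encode galectins with a pair of sugar-binding domains, did not pass. Galectin-8 is known to mark damaged vesicles for autophagy in human cells. Lgals8 read 7.91, 7.45 and 7.43 log2 on MCAO 1 to 3, against 7.59, 7.34 and 7.40 on sham 1 to 3. The groups overlapped, and the highest value of each came from the array numbered 1. The difference was 0.15 ± 0.14 log2 (SE; 95% interval −0.17 to 0.48; adjusted p = 0.913 by limma), and its other probe set read 0.10 ± 0.081. Without MCAO 1 the difference of Lgals8 was −0.0020.

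Galectin-4 is best known from the epithelium of the gut. Lgals4 read 5.79, 6.10 and 6.00 log2 on MCAO 1 to 3, against 6.02, 6.01 and 5.94 on sham 1 to 3. The groups overlapped throughout, and 13.8% of genes read as low as Lgals4 or lower in sham. The difference was −0.023 ± 0.094 log2 (SE; 95% interval −0.24 to 0.20; adjusted p = 0.988 by limma), and without MCAO 1 it was 0.063. The values come without detection calls, so a value this low cannot be told from background. Lgals6, a close relative of Lgals4 in mice, had no match among the symbols used.

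The other galectins on the array did not pass either. Of 5 further family members measured, 0 passed by limma and 0 had an unadjusted p under 0.05, with a median of −0.085 log2. Lgals7, an epithelial galectin, averaged 6.06 in MCAO and 6.15 in sham, and Lgals12, a galectin of fat cells, 6.27 and 6.22. Lgals2 averaged 6.50 in MCAO and 6.64 in sham on its brighter probe set, and 6.27 in MCAO and 6.17 in sham on the other, so its probe sets differ in sign. Lgalsl, a galectin-like gene, averaged 10.09 in MCAO and 10.20 in sham, and Grifin, a galectin-related gene of the lens, 6.54 and 6.43. Their differences lay between −0.13 and 0.11 log2. In sham 1 of the 5, Lgalsl, lay above the median gene. The others lay below it, and without detection calls such low values may not stand above background.

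**Figure D2:**
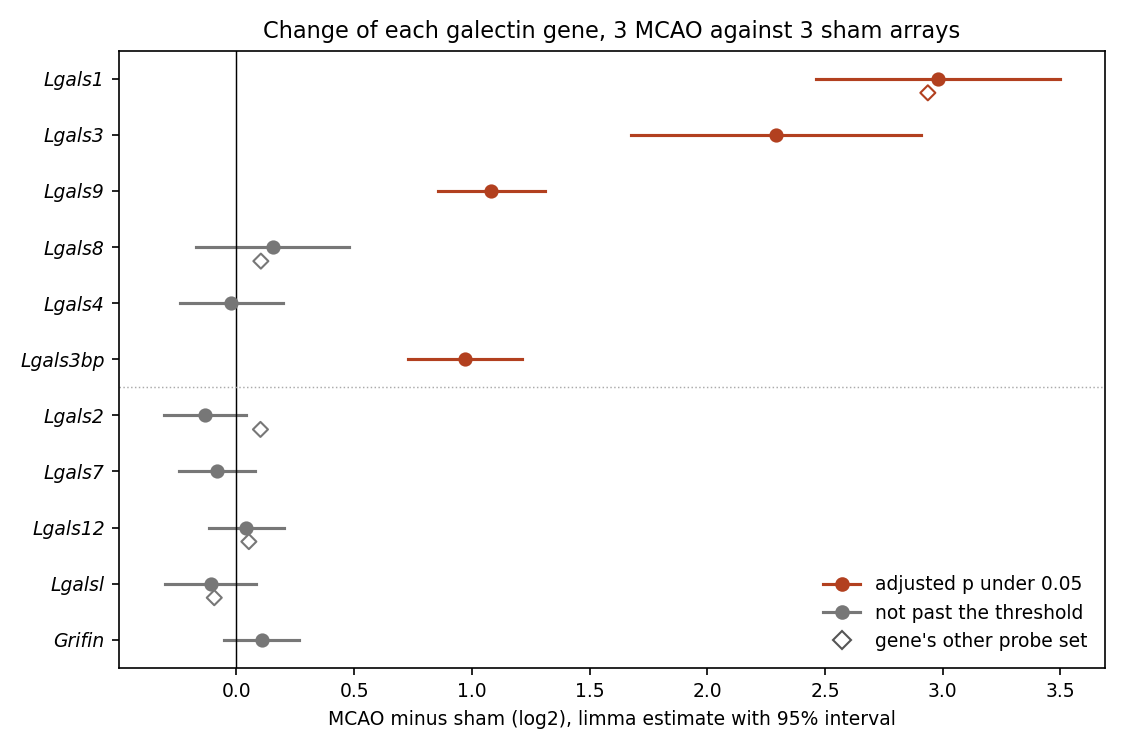
Difference between MCAO and sham (log2, horizontal axis) of each galectin gene as limma's estimate with its 95% interval, 3 arrays per group. The dotted line parts the 6 genes described from 5 other galectins, and open diamonds are other probe sets of the same gene. Lgals1 at 2.98 and Lgals3 at 2.29 lie farthest right, Lgals9 and Lgals3bp lie near 1, and the intervals of all others include 0.

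The sizes of the changes were compared within arrays, where a scaling of the whole array cancels. How each probe set responds to its RNA does not cancel, so these are differences between probe set readings. With 3 arrays against 3 an exact permutation test cannot go below p = 0.1 (2-sided), so none of the 15 pairs of genes could pass. Lgals1 rose by 0.69 ± 0.14 log2 more than Lgals3 (SE). The excess of the Lgals1 over the Lgals3 value was 0.62 to 1.05 on MCAO arrays and 0.09 to 0.27 on sham arrays, which do not overlap (exact permutation p = 0.1, 0.115 adjusted over the 15 pairs). Lgals3 rose by 1.21 ± 0.38 more than Lgals9 and by 1.32 ± 0.34 more than Lgals3bp, again without overlap (exact permutation p = 0.1 for each). The change of Lgals3bp minus that of Lgals9 was −0.11 ± 0.070, with overlapping ranges of −0.15 to 0.077 on MCAO arrays and 0.028 to 0.099 on sham arrays (exact permutation p = 0.3).

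Differences within the same array number were positive throughout for the 4 genes that rose. For Lgals1 they were 3.51, 2.17 and 3.26 log2 in numbers 1 to 3, and for Lgals3 2.65, 1.40 and 2.83. Lgals9 gave 1.13, 1.07 and 1.05 and Lgals3bp 0.96, 0.89 and 1.06 in the same order. The differences of Lgals1, Lgals3 and Lgals3bp were thus smallest in number 2 and that of Lgals9 in number 3, and they spread more widely for Lgals1 and Lgals3 than for Lgals9 and Lgals3bp. Lgals8 gave 0.32, 0.11 and 0.036, and Lgals4 gave −0.23, 0.095 and 0.063.

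The deviations of single arrays from their group means were also compared. Across the 6 arrays they correlated at Pearson's r = 0.92 between Lgals1 and Lgals3 and at 0.79 between Lgals9 and Lgals3bp, but at −0.055 between Lgals1 and Lgals9, −0.11 between Lgals3 and Lgals9, 0.18 between Lgals1 and Lgals3bp and 0.33 between Lgals3 and Lgals3bp. The deviations of Lgals8 correlated at −0.87 with those of Lgals9, −0.81 with those of Lgals3bp and −0.76 with those of Lgals4. Those of Lgals4 correlated at −0.65 with Lgals1 and −0.55 with Lgals3. These are descriptions over 6 arrays that share their RNA and scaling across genes. Other genes that did not pass between MCAO and sham reached higher r by this measure. The highest were Tgds with Lgals1 (0.979), Diaph1 with Lgals3 (0.999), Ranbp3 with Lgals9 (0.999) and Krt222 with Lgals3bp (0.999). Over all genes the deviations of MCAO 1 and sham 1 correlated at 0.77. Values of this size are therefore not particular to galectins. On MCAO 2, Lgals1 and Lgals3 lay 0.49 and 0.67 log2 below their MCAO means, while Lgals9 lay 0.072 above and Lgals3bp 0.031 below.

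**Figure D3:**
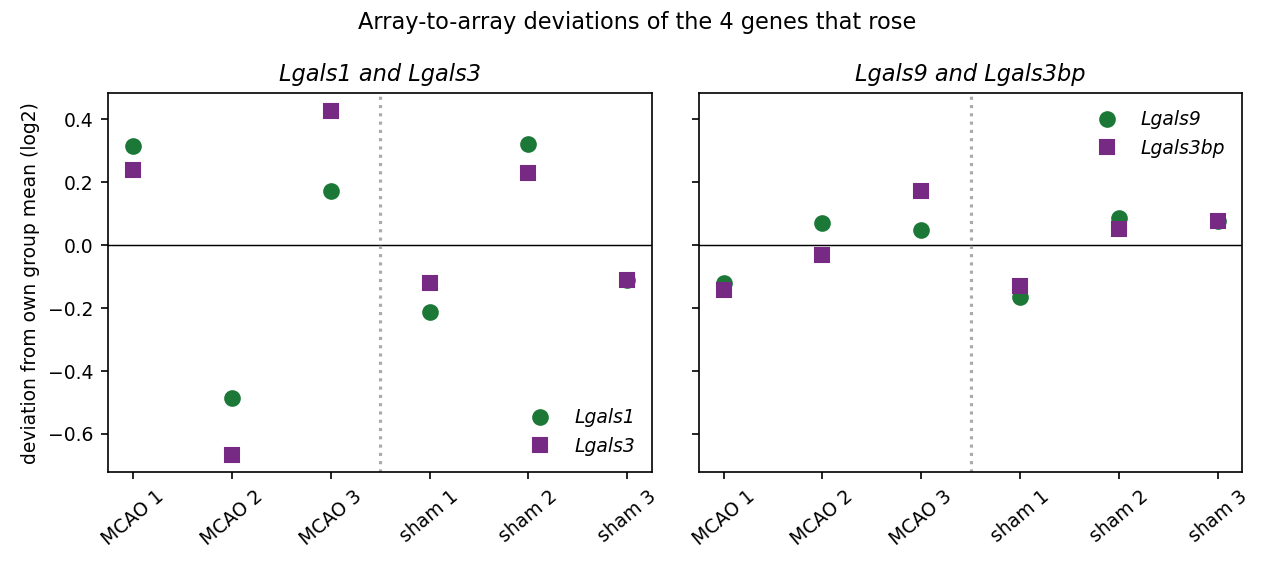
Deviation of each array from its own group mean (log2, vertical axis) for the 4 genes that rose, with MCAO arrays left of the dotted line and sham arrays right of it. Lgals1 and Lgals3 share a low MCAO 2 and a high sham 2, and Lgals9 and Lgals3bp share a low array 1 in both groups.

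Genes with the most similar profiles were sought among 8898 genes above the median level, by Pearson's r over the 6 arrays. This measure follows the difference between the groups, so a high r is shared by many genes that changed. Closest to Lgals1 were Cyba, a subunit of the phagocyte oxidase, the small GTPase gene Rab29, Dhrs1, the antioxidant regulator Nfe2l2 and the proteoglycan gene Srgn (r = 0.996 for the first 4 and 0.995 for Srgn). Closest to Lgals3 were Aldh7a1, Tram1, the interferon-induced gene Ifi35, the Fc receptor chain gene Fcer1g and Shisa5 (r between 0.991 and 0.997). Of these Aldh7a1 and Tram1 did not pass between MCAO and sham (adjusted p = 0.0546 and 0.0775 by limma). Closest to Lgals3bp were Lcp1, an actin-bundling protein of leukocytes (r = 0.998), S100a16, Cbfb, Taldo1 and Ifitm2 (r between 0.995 and 0.996). Of these Taldo1 did not pass (adjusted p = 0.317 by limma). For Lgals9, added after its values were seen, the nearest were Pycard, the inflammasome adaptor, C1qa, a complement subunit, Taldo1, Lcp1 and Malsu1 (r between 0.993 and 0.997), of which Taldo1 and Malsu1 did not pass between MCAO and sham. By deviations from the group means the nearest genes were others: Tgds, Cldn5, Lman1, Tcaim and Slc7a1 for Lgals1, Diaph1, Trim62, Cav1, Isoc1 and Mpv17l for Lgals3, and Krt222, Cdc42bpb, Cdc34, Mir670hg and Med26 for Lgals3bp. Their r lay between 0.967 and 0.979 for Lgals1, 0.990 and 0.999 for Lgals3 and 0.997 and 0.999 for Lgals3bp. None of these 15 passed the threshold between MCAO and sham.

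Some genes of galectin partners rose as well. Of 36 measured genes for glycoproteins that galectins bind, 6 rose and 30 did not pass, with a median of 0.19 log2. Over all genes 1.12% rose. At an unadjusted p under 0.05, 15 were higher and 0 lower, against 6.33% and 2.46% of all genes. Cd44, the hyaluronan receptor, had a mean of 8.37 in MCAO, against 6.40 in sham, and rose by 1.97 ± 0.14 log2 (SE; 3 arrays in each group; adjusted p = 0.00304 by limma). Lamp2, a heavily glycosylated protein of the lysosomal membrane, rose by 0.70 and Itgb2, the leukocyte integrin subunit, by 0.85. The other 3 that rose, named after their values were seen, were Ptprc, which encodes the leukocyte phosphatase CD45 (1.29), Fn1 for fibronectin (0.61) and Trem2, the microglial lipid receptor (0.60). The probe sets of Lamp2 and Trem2 carry a suffix that marks possible binding to other transcripts. Cd44 is also counted below as a reactive astrocyte marker and Trem2 as an activated phagocyte marker, so these lists are not separate. The count of 6 was 1 without MCAO 3 or sham 3, 2 without sham 2, 3 without sham 1, 2 when all probe sets of a gene were averaged and 14 with the array number as a block. With that block 4.83% of all genes rose.

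A few further partners are given, chosen after values were seen. Havcr2, which encodes the galectin-9 receptor TIM-3, averaged 6.46 in MCAO and 5.99 in sham (adjusted p = 0.190 by limma, and 0.00318 with the block). In sham 13.8% of genes read as low as Havcr2 or lower, so like Lgals4 its sham level cannot be told from background. Mertk and Tlr4, which encode receptors reported to bind galectin-3, read 0.19 and 0.12 log2 higher in MCAO (adjusted p = 0.541 and 0.819 by limma). Itgb1, the integrin subunit bound by galectin-1 and galectin-8, read 0.25 higher (adjusted p = 0.930 by limma). Trem2, which rose, is also reported to bind galectin-3.

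Enzymes that build, cap or otherwise alter the sugars galectins bind did not pass. The list pools these steps, so its counts give no direction for galectin binding. Of 22 genes for N-glycan branching, galactose capping and related steps on glycolipids and O-glycans, 0 passed by limma, with a median of 0.040 log2, while 6 were higher and 1 lower at an unadjusted p under 0.05 (over all genes 6.33% and 2.46%). B3gnt2, which extends chains of the disaccharide that galectins prefer, had a mean of 8.69 in MCAO, against 8.98 in sham, and its difference was −0.28 ± 0.072 log2 (SE; adjusted p = 0.174 by limma). B4galt1, a galactosyltransferase, averaged 7.30 in MCAO and 6.88 in sham, and B3gnt5, which starts a class of glycolipid chains, 7.01 and 6.66 (adjusted p = 0.175 and 0.231 by limma). With the block 3 genes rose and 1 fell, against 4.83% and 1.30% of all genes. B4galt1, B3gnt5 and the O-glycan branching enzyme gene Gcnt1 were higher (adjusted p = 0.0239, 0.0169 and 0.0174 by limma with the block) and B3gnt2 lower (0.0355). With the block on the values before quantile normalisation 3 rose and 0 fell.

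Genes of the response to damaged lysosomes, in which galectins take part inside cells, were also counted. Of 17 measured, 0 passed by limma and 0 had an unadjusted p under 0.05, with a median of −0.082 log2. The smallest p-values belonged to the autophagy genes Gabarapl1 (−0.15 log2), Becn1 (−0.17) and Atg16l1 (−0.13). With the block 1 fell, the GTPase gene Rraga, at −0.43 (adjusted p = 0.0300, and 0.876 without the block by limma), where 1.30% of all genes fell.

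**Figure D4:**
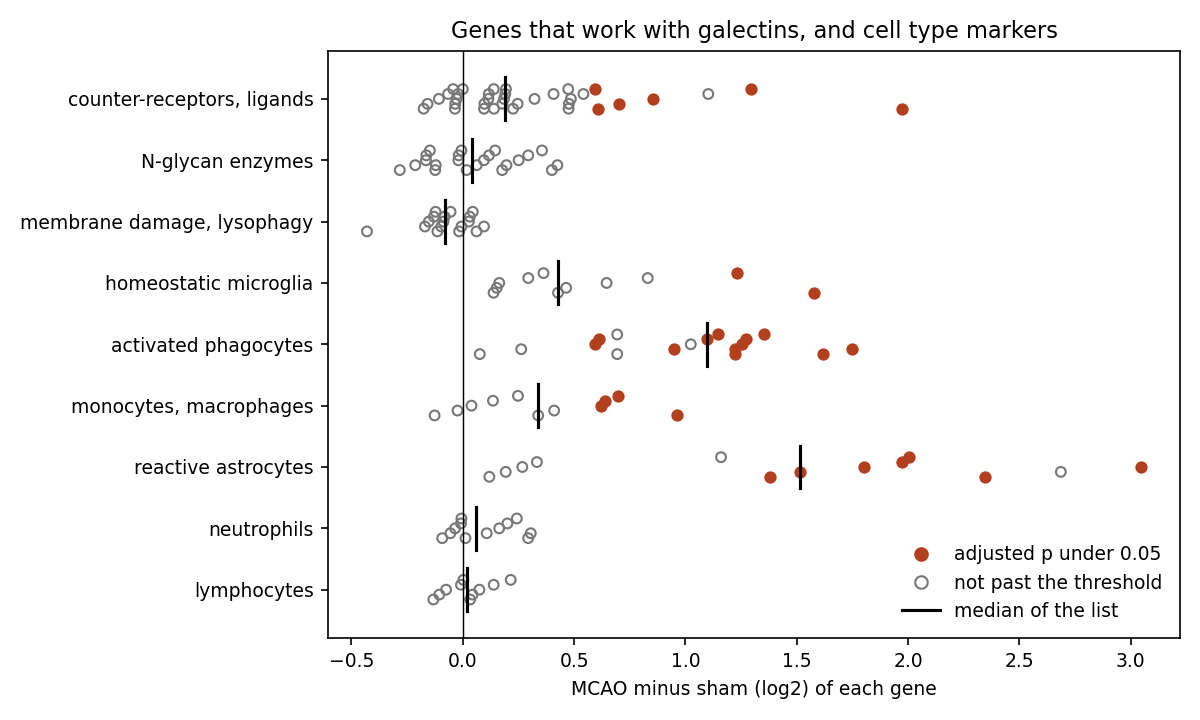
Difference between MCAO and sham (log2, horizontal axis) of each gene in 3 lists of galectin partners and 6 lists of cell type markers, with 1 point per gene. Filled points passed an adjusted p under 0.05, and vertical bars are list medians. The bars of reactive astrocytes (1.51) and activated phagocytes (1.10) lie farthest right, and those of neutrophils and lymphocytes lie near 0.

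Markers of cells that can express galectins moved in the same samples. Over all genes 1.12% rose by limma, and 4.83% with the block. Of 17 markers of activated phagocytes 12 rose, among them the Fc receptor gene Fcgr1 (1.35 log2), Cd14 (0.95) and the lysosomal protease gene Ctsz (1.15), and the mean level of the list was 8.13 to 8.62 on MCAO arrays and 7.31 to 7.39 on sham arrays. The 12 were 3 without sham 3, 6 without sham 2 or MCAO 3, and 15 with the block. Of 13 reactive astrocyte markers 7 rose, among them Cd44 (1.97), the sphingosine-1-phosphate receptor gene S1pr3 (2.01) and the protease inhibitor gene Serpina3n (3.05), and the list averaged 8.33 to 8.84 on MCAO arrays and 6.94 to 7.24 on sham arrays. The 7 were 5 without sham 3 and 10 with the block. Gfap, named after its value was seen, read 2.69 and did not pass (adjusted p = 0.140 by limma, and 5.67e-07 with the block). Of 11 homeostatic microglia markers 2 rose (7 with the block, and 1 without MCAO 2, MCAO 3 or sham 3), Fcrls by 1.58 and Olfml3 by 1.23, while P2ry13 read 0.43 (adjusted p = 0.135 by limma). That list averaged 8.58 to 8.94 on MCAO arrays and 8.15 to 8.23 on sham arrays. Of 11 monocyte and border macrophage markers 4 rose (1 without sham 3, 2 without MCAO 3, sham 1 or sham 2, and 0 with genes below the median gene left out), led by the mannose receptor gene Mrc1 (0.96), Ms4a6c (0.70) and F13a1 (0.62), with Plac8 (0.64) named after its value was seen. In sham 0 of the 11 exceeded the median gene. The list means were 6.57 to 6.72 on MCAO arrays and 6.25 to 6.35 on sham arrays.

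Neutrophil and lymphocyte markers did not pass. Of 12 neutrophil markers 0 passed by limma (3 higher at an unadjusted p under 0.05, where 6.33% of all genes were) and 0 lay above the median gene in sham, and Clec4d, S100a8 and Elane read 0.29, 0.24 and 0.20 log2. Of 10 lymphocyte markers 0 passed and 0 had an unadjusted p under 0.05 by limma, and Cd79b, Cd3g and Cd8b1 read 0.22, 0.14 and −0.11. In sham 1 of the 10, Cd4, lay above the median gene. Low signal thus limits what the lack of calls in the neutrophil and lymphocyte lists can show. Among other lists, 2 of 12 markers of healthy astrocytes rose, Aldh1l1 (0.89) and Aqp4 (0.97), which encodes a water channel, as did 1 of 9 of stem and progenitor cells, the fatty acid carrier gene Fabp7 (1.66), and 1 of 10 of mural cells and fibroblasts, the smooth muscle gene Tagln (1.95). In these lists Gpc5, a glypican of astrocytes, read −0.40 and the Notch target Hes5 −0.42 (adjusted p = 0.0896 and 0.0815 by limma, and 0.0125 and 0.00407 with the block). At an unadjusted p under 0.05, 3 healthy astrocyte markers were higher and 1 lower, 1 stem and progenitor marker was higher and 1 lower, and 2 mural markers were higher and 0 lower. Over all genes 6.33% were higher and 2.46% lower at that p. With the block 4 healthy astrocyte markers rose and 1 fell, 1 stem and progenitor marker rose and 1 fell, and 1 mural marker rose. Over all genes 4.83% rose and 1.30% fell with the block. Without sham 3 and without the block none of the 4 that rose passed (Fabp7 also not without MCAO 2, MCAO 3 or sham 1, and 1 of the 2 astrocyte markers also not without MCAO 3, sham 1 or sham 2). By limma 0 passed among 10 neuroblast, 10 ependymal, 7 choroid plexus, 7 oligodendrocyte, 6 striatal neuron, 7 endothelial and 2 red blood cell markers. At an unadjusted p under 0.05, 1 neuroblast marker was higher (Cd24a) and 1 lower (Dlx6), 2 striatal markers were lower (Drd1 and Tac1) and 1 endothelial marker was higher (Cldn5), while the other 4 lists had 0. With the block 1 neuroblast marker, Cd24a, rose (adjusted p = 0.00466) and 1 striatal marker, Drd1, fell (0.0179), with 0 calls in the other 5 lists.

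The array numbered 2, where Lgals1 and Lgals3 rose least, also showed the smallest differences for the means of most marker lists, with and without calls. Within numbers 1 to 3 the mean of the activated phagocyte list differed by 1.31, 0.74 and 0.93 log2, that of homeostatic microglia by 0.79, 0.38 and 0.54, that of monocytes by 0.43, 0.22 and 0.42 and that of reactive astrocytes by 1.40, 1.21 and 1.74. It was smallest in number 2 as well for lists without a call, with 0.16, −0.044 and 0.17 for neutrophils, 0.081, −0.10 and 0.078 for lymphocytes and 0.19, −0.12 and 0.14 for endothelial cells. For healthy astrocytes the difference was smallest in number 3 (0.35, 0.17 and 0.14). It was lowest there too for oligodendrocytes (0.056, −0.075 and −0.21) and striatal neurons (−0.22, −0.14 and −0.24). For neuroblasts (0.0019, 0.13 and 0.025) and choroid plexus (−0.12, 0.10 and 0.0068) it was highest in number 2. The part of these cells in the galectin values was not tested.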

How the data were processed

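Expression was measured on 6 arrays, 3 MCAO and 3 sham. The values deposited by the authors were used as log2 expression values, 1 per probe set; the log base was read from their range, and how the authors corrected background, summarised probes and normalised is not given in the sources used here. A generalised logarithm would compress low values. Deposited medians were 6.57 to 6.59 and 90th percentiles 8.85 to 9.06, so quantile normalisation was added. The array annotation gave 1 symbol to 34945 probe sets, several to 932 and none to 9160, beside 64 controls. MCAO and sham were compared by limma 3.58.1 in R 4.3.3 over 18193 genes, 2-sided, without a block; the code was tested on simulated data. The number of arrays limits the precision.

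Members and lists were chosen with earlier results of these data known, and the promoter motifs after the sequences were seen. Named from each list were the 3 smallest p-values, every other galectin, and the 5 nearest profiles of Lgals1, Lgals3 and Lgals3bp. Per the labels each group has samples 1 to 3, with no meaning stated; deviations from group means correlated across genes at 0.77, 0.44 and 0.48 between same-numbered arrays, so the number was also fitted as a block. Alternatives changed normalisation, probe set summary, variance model, filter and arrays used.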

Additional observations from a re-analysis of the deposited data

How the results depend on the processing

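Lgals1, Lgals9 and Lgals3bp passed under all 15 alternatives, with differences of 2.72 to 3.22, 1.00 to 1.14 and 0.88 to 1.04 log2. Lgals3 passed under 14 of 15. Leaving out each array in turn gave 2.08 to 2.63 for Lgals3, which did not pass without sham 3 (2.24, adjusted p = 0.0743 by limma; adjusted p between 0.00390 and 0.0413 without another array). With the sample number as a replicate block the calls of the 6 genes did not change, with adjusted p by limma of 1.63e-05 for Lgals1, 1.35e-04 for Lgals3, 1.48e-05 for Lgals9, 3.19e-05 for Lgals3bp, 0.316 for Lgals8 and 0.927 for Lgals4. Lgals8 ranged from −0.0020 to 0.23 and Lgals4 from −0.092 to 0.063 with 1 array left out. Without both arrays numbered 1, Lgals4 read 0.079. The change of Lgals4 minus that of Lgals8, −0.18 with all arrays, ranged between −0.32 and 0.065 (without MCAO 1) with 1 array left out and was 0.0082 without both arrays numbered 1. Lgals4 has no value where genes below the median gene were left out, since it lies below it. Over all genes, 203 rose and 3 fell. With the block 878 rose and 236 fell, and 766 and 51 when the block was fitted to the deposited values. On the deposited values without it, or after shifting arrays to one median, 0 fell by limma, with robust variance or dimmer genes left out 1 fell, and 26 fell without both arrays numbered 1. With 1 array left out 44 (without sham 3) to 188 rose and 0 to 21 fell. The cause of these shifts was not tested. Signal over background is unknown here, which limits what the low values of Lgals4 can show.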
